A study of Mus musculus with 8 samples.

Results

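The G1 cyclins Ccnd1, Ccnd2, Ccnd3, Ccne1 and Ccne2 and the cyclin-dependent kinase (CDK) inhibitors Cdkn1a, Cdkn1b, Cdkn1c, Cdkn2a and Cdkn2b were compared between 2D- and 3D-cultured adipose-derived stem cells (ADSCs). These 10 genes were taken by symbol from the 24346 listed genes, and all 10 were above 0 in at least 1 library. Wild-type BALB/c mice gave the cells, which came from the gonadal fat of 12-week-old males, and the 8 primary cultures were grown either in 2D (mice 2, 3, 4 and 5) or in 3D as organoids in Matrigel, a basement membrane extract (mice 1, 4, 5 and 7). Mice 4 and 5 thus gave a library of each kind, the strain and genotype are shared by all 8 cultures, and the labels name no treatment. The methods describe 3D media with several mixtures of Wnt3a- and R-Spondin1-conditioned medium, and the labels give neither the mixture nor the passage of a culture, so effects of geometry, medium and passage cannot be told apart. The description of the 3D library of mouse 1 ends in 13, where those of the other libraries end in 2D or 3D, and what 13 stands for is not stated, so this library was grouped by its title. RNA of each culture was sequenced once after removal of ribosomal RNA, and expression is given as FPKM (fragments per kilobase of transcript, scaled to the mapped fragments).

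A cell passes from G1 into S phase when cyclin-dependent kinases phosphorylate the retinoblastoma protein and release E2F transcription factors. D-type cyclins, which respond to mitogens and adhesion, activate CDK4 and CDK6, and E-type cyclins, whose genes are E2F targets, activate CDK2. Cip/Kip proteins (Cdkn1a, Cdkn1b and Cdkn1c, encoding p21, p27 and p57) bind cyclin-CDK complexes, whereas INK4 proteins (p15 from Cdkn2b and p16 from Cdkn2a) bind CDK4 and CDK6 alone. In cultured mouse stromal cells the inhibitors p16, p21 and the second product of Cdkn2a, p19ARF, are known as markers of culture stress and senescence.

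Upstream sequences are shown for Ccne1, the member with the largest fall in log2 fold change, and for both starts of Cdkn2a, because the FPKM value of that gene adds the p19ARF and p16 transcripts together. Each run holds the 250 bases before a RefSeq start (GRCm38.p6), written 5′ to 3′ on the minus strand. Capitals mark GGGCGG (the GC box) and the E2F motifs TTTCCCGC, TTTCGCGC, TTTGCCGC and TTTGGCGC on either strand.
Ccne1, chr7:38107491-38107740: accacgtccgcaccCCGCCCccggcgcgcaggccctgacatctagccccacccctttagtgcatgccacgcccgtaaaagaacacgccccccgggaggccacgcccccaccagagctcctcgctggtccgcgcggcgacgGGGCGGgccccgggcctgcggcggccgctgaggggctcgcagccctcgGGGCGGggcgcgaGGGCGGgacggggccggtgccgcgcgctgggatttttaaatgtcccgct
Cdkn2a, p19ARF start, chr4:89294620-89294869: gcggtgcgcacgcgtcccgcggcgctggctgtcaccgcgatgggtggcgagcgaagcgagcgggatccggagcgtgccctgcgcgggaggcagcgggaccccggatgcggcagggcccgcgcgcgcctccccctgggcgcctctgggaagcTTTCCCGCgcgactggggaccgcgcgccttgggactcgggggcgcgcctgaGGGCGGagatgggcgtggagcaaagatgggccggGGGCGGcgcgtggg
Cdkn2a, p16 start, chr4:89282193-89282442: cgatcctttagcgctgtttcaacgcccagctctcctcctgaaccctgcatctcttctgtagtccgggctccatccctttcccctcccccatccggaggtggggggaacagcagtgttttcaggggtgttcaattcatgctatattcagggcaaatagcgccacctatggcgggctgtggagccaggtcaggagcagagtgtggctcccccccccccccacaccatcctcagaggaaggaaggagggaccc
The Ccne1 sequence held 4 GC boxes and 0 of the E2F motifs, and its GC content was 76%. The p19ARF start had 2 GC boxes and 1 E2F motif, which began 99 bases before the start, and the p16 start had 0 of either. Of all 32851 promoters of the same length, 32.7% held a GC box and 1.86% one of the E2F motifs. These matches describe letters in this window and not sites in use. Of the 10 genes, 6 had promoter entries, and the other 4 were Ccnd1, Ccnd2, Ccne2 and Cdkn1c.

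The libraries held an estimated 14.5 M to 17.4 M fragments, and all 4 3D libraries were shallower than all 4 2D libraries. FPKM values were quantile normalized over the 18862 genes above 0 in at least 1 library, and differences between the cultures are on the log2(normalized FPKM + 1) scale from limma, where changes of genes at low FPKM appear smaller than they are. An adjusted p below 0.05 (Benjamini-Hochberg, over these genes) was reached by 41.5% of all genes, with 21.2% higher and 20.3% lower in 3D. The labelled cell type was not borne out alike in both cultures. The 13 stromal markers, all lower in 3D, summed to between 2184 and 4857 normalized FPKM in 2D and between 4.88 and 8.79 in 3D, with Col1a1 at 491 ± 181 (SD, n = 4) and 0.0426 ± 0.0448, and 11 of the 13 were under 1 in every 3D library. Of 12 epithelial markers, 11 were higher in 3D, and the 12 summed to between 31.8 and 694 in 2D and between 2723 and 3183 in 3D. In every 2D library 8 of the 12 were under 1. The sum of 694 was that of mouse 4, with Krt7, Krt8, Krt18 and Krt19 at 67.3, 261, 256 and 109. The calls of Krt8 and Krt19 were lost without mouse 2 or 5 in 2D or mouse 5 or 7 in 3D, and that of Krt8 also without mouse 1 or 4 in 3D (adjusted p of up to 0.0621 and 0.0518 in limma). In these bulk libraries, fewer cells of a type and less RNA per cell cannot be told apart, and the part of the cell makeup in the results on the G1 genes was not tested. The 2D libraries of mice 3 and 4 also held mesothelial RNA, with a summed level of 824 and 2122 normalized FPKM over 7 markers (Msln, Upk3b and Wt1 among them), against 2.04 and 0.574 in those of mice 2 and 5.

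All 5 cyclins passed the test, 4 of them lower and 1 higher in 3D, and of the 5 inhibitors 1 passed and was lower. In these 6 genes the libraries of the cultures did not overlap, with 2D above 3D in 5 genes (20.9% of all genes) and 3D above 2D in 1 (21.6% of all genes). The median log2 fold change was -1.81 for the cyclins and -0.31 for the inhibitors, against 0.0012 for all genes tested. A fit with a term for each mouse (a block) rests on mice 4 and 5 alone and has 1 residual degree of freedom. In it, limma's adjusted p passed for 0 of the 10 members, as for 0 of all genes. By the unadjusted p of that fit, 4 members (Ccnd1, Ccnd2, Ccnd3 and Cdkn1c) and 5216 of all genes were below 0.05.

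**Figure D1:**
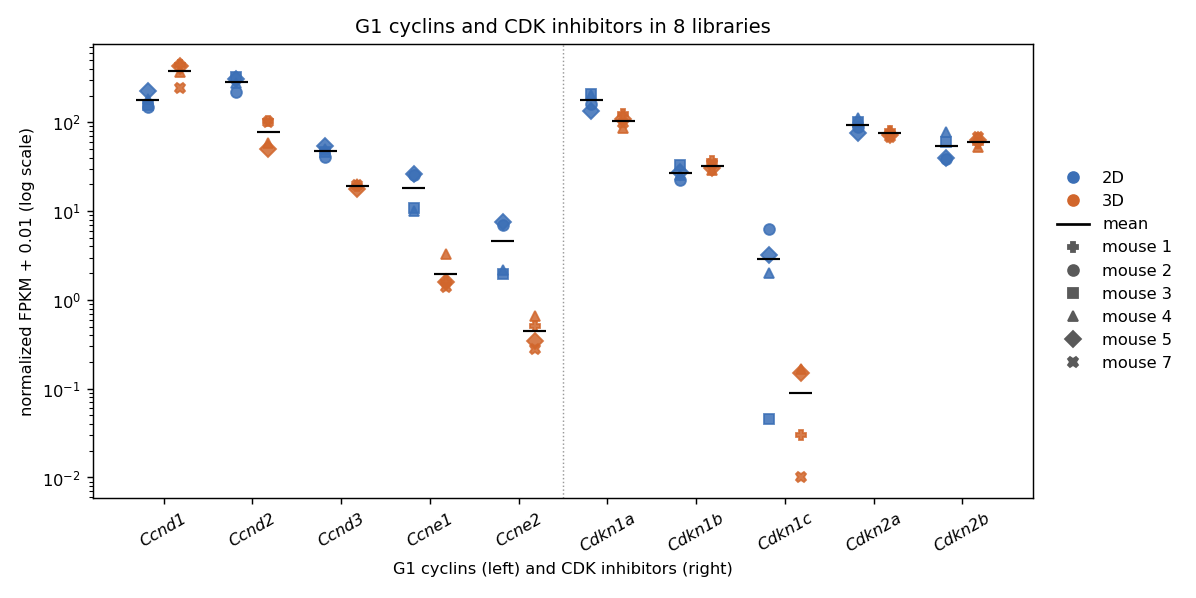
Normalized FPKM (plus 0.01, log axis) of the 5 G1 cyclins and the 5 CDK inhibitors in each library, with 2D in blue, 3D in orange, a symbol for each mouse and a line at the mean of 4 libraries. The libraries of the cultures were apart for the 5 cyclins and Cdkn1a and overlapped for the other 4 inhibitors.

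D-type cyclins changed in opposite directions. Ccnd1 (cyclin D1, chr7:144929931-144939925, minus strand, the span of the whole gene in GENCODE M21 on GRCm38, as for the genes that follow) was at 150, 155, 181 and 224 normalized FPKM in 2D (mice 2, 3, 4 and 5) and at 447, 373, 437 and 246 in 3D (mice 1, 4, 5 and 7). The 3D libraries were all above those of 2D, and that of mouse 7 came closest to the 2D range. The mean rose from 177 ± 33.8 to 376 ± 92.2 (SD, n = 4), and the log2 fold change was 1.06 (SE 0.22, SE being the standard error, with an adjusted p of 0.00616 in limma). On the values as deposited, the 2D libraries lay between 168 and 294 FPKM and the 3D libraries between 200 and 388, so that they overlapped. The log2 fold change was then 0.49 with an adjusted p of 0.140 from limma, and with scaling to a common 75th percentile it was 0.55 with an adjusted p of 0.0985. For the 1585 genes that averaged 50 FPKM or more, the median log2 fold change was -0.068 after quantile normalization and -0.55 on the values as deposited, so the rise of Ccnd1 is relative to other well-expressed genes.

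Ccnd2 (cyclin D2, chr6:127125162-127152193, minus strand) was the most abundant of the 5 cyclins in 2D. Its level was 219, 326, 274 and 311 normalized FPKM in 2D (mice 2, 3, 4 and 5) and 105, 58.0, 50.3 and 101 in 3D (mice 1, 4, 5 and 7). There was no overlap, and within 3D mice 1 and 7 stood above mice 4 and 5. The mean fell from 282 ± 47.8 to 78.6 ± 28.4 (SD, n = 4), which is 3.59-fold, with a log2 fold change of -1.89 (SE 0.27, with an adjusted p of 0.00105 in limma).

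Ccnd3 (cyclin D3, chr17:47505051-47599691, plus strand) had the smallest standard error of the 10 members. In 2D it ranged from 40.2 to 54.0 normalized FPKM, and its 3D libraries lay between 17.8 and 20.0. The fall from 47.6 ± 5.86 to 19.2 ± 0.938 (SD, n = 4) gave a log2 fold change of -1.26 (SE 0.098, with an adjusted p of 5.3e-05 in limma). Within mouse 4 the log2 difference was -1.28 and within mouse 5 it was -1.55. For Ccnd2 these differences were -2.22 and -2.60, and for Ccnd1 they were 1.04 and 0.96, so both mice had the direction of the group means in all 3 genes. Ccnd2 overlaps the antisense gene 9330179D12Rik, Ccnd3 overlaps Bysl and Ccne2 overlaps Ints8 on the opposite strand. Ccnd1 (LTO1), Ccnd2 (Gm43126), Cdkn1a (AC167363.2) and Cdkn1c (Gm44732) overlap opposite-strand genes that are not listed under these symbols. Whether the counting used strand is not given in the sources used here.

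As a share of the summed D-type cyclin FPKM, Ccnd1 made up 36.6%, 29.4%, 35.9% and 38.0% in the 2D libraries and 78.3%, 82.7%, 86.5% and 67.1% in the 3D libraries. Ccnd2 made up 55.6% ± 4.19 (SD, n = 4) in 2D and 17.2% ± 7.75 in 3D, and Ccnd3 9.42% ± 0.547 and 4.17% ± 0.893. The order was thus Ccnd2, Ccnd1, Ccnd3 in all 4 2D libraries and Ccnd1, Ccnd2, Ccnd3 in all 4 3D libraries. The shares came out alike on the deposited values, with Ccnd1 at 35.2% ± 4.09 in 2D and 77.9% ± 7.84 in 3D. The sum of the 3 genes in normalized FPKM averaged 507 ± 74.7 for 2D and 473 ± 86.2 for 3D (SD, n = 4), and the libraries overlapped. On the deposited values the sums averaged 608 ± 95.3 and 389.6 ± 79.2 FPKM (SD, n = 4), without overlap, so whether the total differed depends on the normalization. These shares are given as a description without a test.

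**Figure D2:**
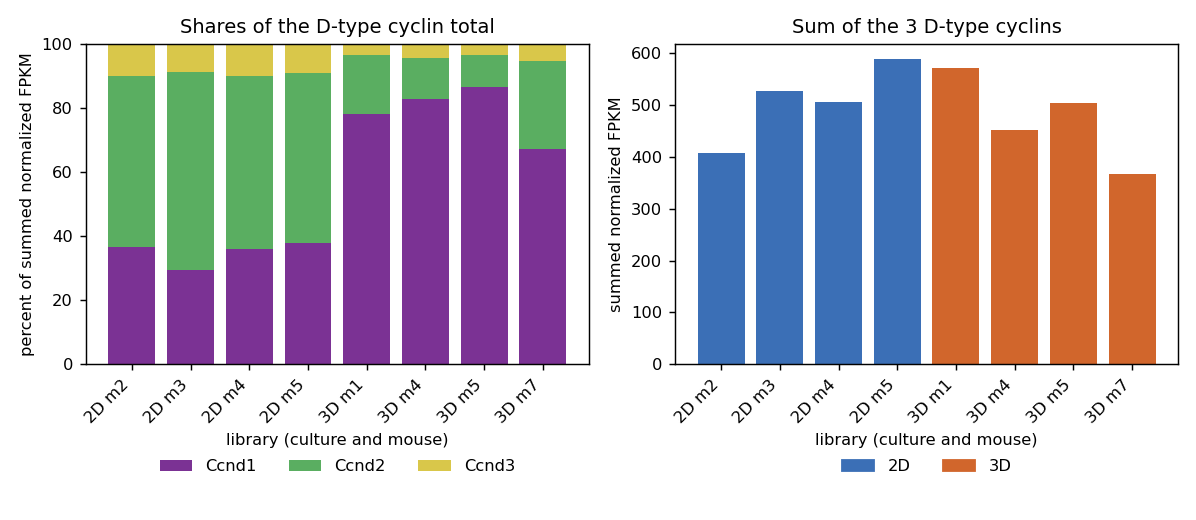
Left, percent of the summed normalized FPKM of the 3 D-type cyclins held by each gene, and right, that sum, with a bar for each library labelled by culture and mouse (m). Ccnd1 held between 29.4% and 38.0% in 2D and between 67.1% and 86.5% in 3D, while the sums overlapped.

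E-type cyclins had the largest falls in fold of the means among the members that passed. Ccne1 (cyclin E1, chr7:38097984-38107534, minus strand) was at 25.2, 10.8, 10.04 and 26.3 normalized FPKM in 2D (mice 2, 3, 4 and 5) and at 1.60, 3.28, 1.57 and 1.38 in 3D (mice 1, 4, 5 and 7). The cultures did not overlap, and within 2D mice 2 and 5 stood above mice 3 and 4, the libraries with mesothelial RNA. The proliferation marker Mki67 was divided in the same way within 2D. It was at 33.0 and 47.3 normalized FPKM in mice 2 and 5 and at 18.1 and 12.9 in mice 3 and 4. The part of mesothelial RNA or of proliferation in the division of Ccne1 was not tested. The mean fell 9.25-fold, from 18.1 ± 8.90 to 1.96 ± 0.884 (SD, n = 4), with a log2 fold change of -2.61 (SE 0.37, with an adjusted p of 0.00107 in limma). Ccne2 (cyclin E2, chr4:11191351-11204779, plus strand) was at 6.94, 1.96, 2.15 and 7.50 normalized FPKM in 2D and at 0.492, 0.656, 0.335 and 0.267 in 3D, in the same order of libraries. It had the same division within 2D as Ccne1. The mean fell 10.6-fold, with a log2 fold change of -1.81 (SE 0.39, with an adjusted p of 0.00718 in limma), and its lowest library rested on about 12.1 fragments.

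With only the libraries of mice 4 and 5, limma's adjusted p was 0.0724 for Ccne1 and 0.116 for Ccne2. Within mouse 4, Ccne1 differed by -1.37 and Ccne2 by -0.93 on the log2 scale, and within mouse 5 by -3.41 and -2.67. The proportion between the genes stayed within a narrow range, with Ccne1 at 80.8% ± 3.24 (SD, n = 4) of the summed E-type FPKM in 2D and 81.5% ± 3.40 in 3D.

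The proliferation marker Mki67, which was not among the members, was at 33.0, 18.1, 12.9 and 47.3 normalized FPKM in 2D (mice 2, 3, 4 and 5) and at 18.1, 19.3, 7.46 and 2.79 in 3D (mice 1, 4, 5 and 7). These ranges overlapped, and its log2 fold change was -1.28 (SE 0.62, with an adjusted p of 0.140 in limma). The ratio of Ccne1 to Mki67 was 0.766, 0.597, 0.777 and 0.557 in 2D and 0.0882, 0.169, 0.210 and 0.496 in 3D, in the same order of libraries. The ratios did not overlap, but that of mouse 7 in 3D, which had the lowest Mki67, lay close to the 2D range. Over the 5 proliferation markers (Mki67, Top2a, Pcna, Mcm2 and Mcm6), the sum lay between 116 and 265 normalized FPKM for 2D and between 58.3 and 128 for 3D, and Pcna, Mcm2 and Mcm6 passed the test as lower in 3D (adjusted p of 0.04998, 0.0336 and 0.0330 in limma). All 3 calls were lost without any one of the 2D libraries of mice 2 and 5 and the 3D libraries of mice 1, 5 and 7, and that of Pcna also without mouse 4 in 2D, with an adjusted p of up to 0.119, 0.0856 and 0.0828. What part the share of cycling cells has in the fall of the E-type cyclins was not tested.

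**Figure D3:**
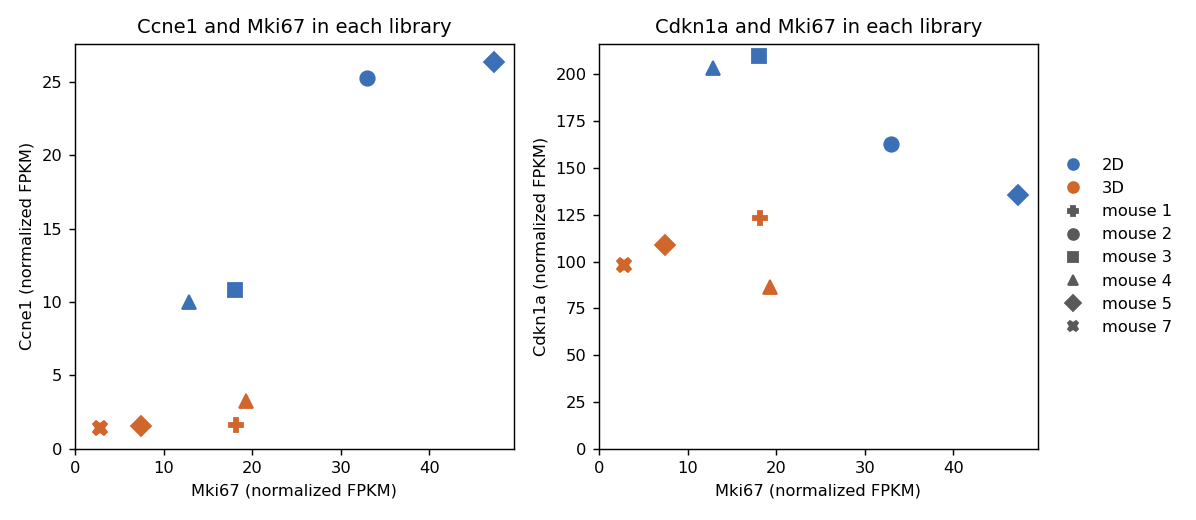
Ccne1 (left) and Cdkn1a (right) against Mki67 in normalized FPKM, 1 point for each library with 2D in blue, 3D in orange and a symbol for each mouse. All 2D libraries lie above all 3D libraries on both vertical axes, while the Mki67 levels overlap (12.9 to 47.3 in 2D and 2.79 to 19.3 in 3D).

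Among the Cip/Kip inhibitors, Cdkn1a (p21, chr17:29090976-29100727, plus strand), a target of p53, was lower in 3D. It was at 163, 210, 203 and 136 normalized FPKM in 2D (mice 2, 3, 4 and 5) and at 123, 86.2, 109 and 98.2 in 3D (mice 1, 4, 5 and 7). All 2D libraries lay above all 3D libraries, although mouse 5 in 2D and mouse 1 in 3D came close. The mean fell from 178 ± 35.0 to 104 ± 15.7 (SD, n = 4), to 58.5% of the 2D level, with a log2 fold change of -0.76 (SE 0.17, with an adjusted p of 0.00871 in limma). Cdkn1a fell by more on the values as deposited (-1.31) and with 75th percentile scaling (-1.26), with adjusted p-values of 1.5e-04 and 1.9e-04 from limma. With only mice 4 and 5 its adjusted p was 0.140 from limma, with a difference of -1.23 within mouse 4 and -0.31 within mouse 5. Within 2D the order of the libraries was the reverse of that for Ccne1 in that mice 3 and 4 held more Cdkn1a and less Ccne1 than mice 2 and 5.

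Cdkn1b (p27, chr6:134920401-134925513, plus strand), which is controlled largely through protein stability, varied little. Its range was 22.6 to 33.2 normalized FPKM in 2D and 28.8 to 36.3 in 3D, and the libraries overlapped. The log2 difference was 0.25 with a 95% confidence interval of -0.045 to 0.56 (limma's adjusted p = 0.156). Without the 2D library of mouse 3, the highest of that culture, it was 0.35 with an adjusted p of 0.0457 from limma. Cdkn1b made up 13.3% ± 2.39 (SD, n = 4) of the summed Cip/Kip FPKM in 2D and 23.9% ± 1.81 in 3D, beside the lower level of Cdkn1a.

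Cdkn1c (p57, chr7:143458339-143461050, minus strand), an imprinted inhibitor, was the least abundant member. In 2D (mice 2, 3, 4 and 5) it was at 6.22, 0.0359, 1.97 and 3.17 normalized FPKM, and in 3D (mice 1, 4, 5 and 7) at 0.0198, 0.158, 0.141 and 0. The 2D library of mouse 3 lay within the 3D range, and the other 2D libraries lay above it. The value of mouse 3 rested on about 1.1 fragments and those in 3D on at most 5.5, and 3 fragments correspond to between 0.0906 and 0.109 FPKM as deposited, depending on the library. The log2 difference of -1.53 (SE 0.53) had an adjusted p of 0.0504 from limma, just above the threshold. Without the 2D library of mouse 3 it was -2.06 with an adjusted p of 0.0019, and with only mice 4 and 5 it was -1.62 with an adjusted p of 0.0259. Over the alternatives to the main fit, other than the block, the adjusted p ranged from 0.0019 to 0.113.

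Neither INK4 member passed by limma's adjusted p, and Cdkn2a was below 0.05 by the unadjusted p (0.0344). Cdkn2a (chr4:89274471-89294653, minus strand), whose p19ARF and p16 starts are printed above, was at 88.8, 99.9, 111 and 76.6 normalized FPKM in 2D (mice 2, 3, 4 and 5) and at 79.7, 80.2, 72.0 and 68.1 in 3D (mice 1, 4, 5 and 7). The 2D library of mouse 5 lay within the 3D range. The log2 difference was -0.31 with a 95% confidence interval of -0.60 to -0.030 (limma's adjusted p = 0.0756). On the values as deposited, all 2D libraries (between 93.8 and 127 FPKM) lay above all 3D libraries (between 57.1 and 67.4), with a log2 difference of -0.81 and an adjusted p of 6.9e-04 from limma, so the call depends on the scaling. Without the 2D library of mouse 5, the lowest of that culture, the difference was -0.40 with an adjusted p of 0.0235 from limma.

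Cdkn2b (p15, a gene induced by TGF-beta, chr4:89306299-89311039, minus strand) lies next to Cdkn2a. It was at 38.3, 59.9, 78.8 and 39.6 normalized FPKM in 2D (mice 2, 3, 4 and 5) and at 58.3, 53.3, 62.8 and 68.0 in 3D (mice 1, 4, 5 and 7). Mice 3 and 4 stood above mice 2 and 5 within 2D, as for Cdkn2a and Cdkn1a, while the 3D libraries lay close together and overlapped those of 2D. The log2 difference was 0.22 with a 95% confidence interval of -0.32 to 0.76 (limma's adjusted p = 0.481), and its sign turned on the values as deposited (-0.15). Summed over the INK4 members, normalized FPKM averaged 148 ± 33.3 in 2D and 136 ± 1.92 in 3D (SD, n = 4). Over all 5 inhibitors it was 356 ± 66.3 in 2D and 272 ± 20.1 in 3D (SD, n = 4), and the libraries overlapped. On the values as deposited, both sums were higher in every 2D library than in any 3D library. Whether these totals differed thus depends on the normalization.

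**Figure D4:**
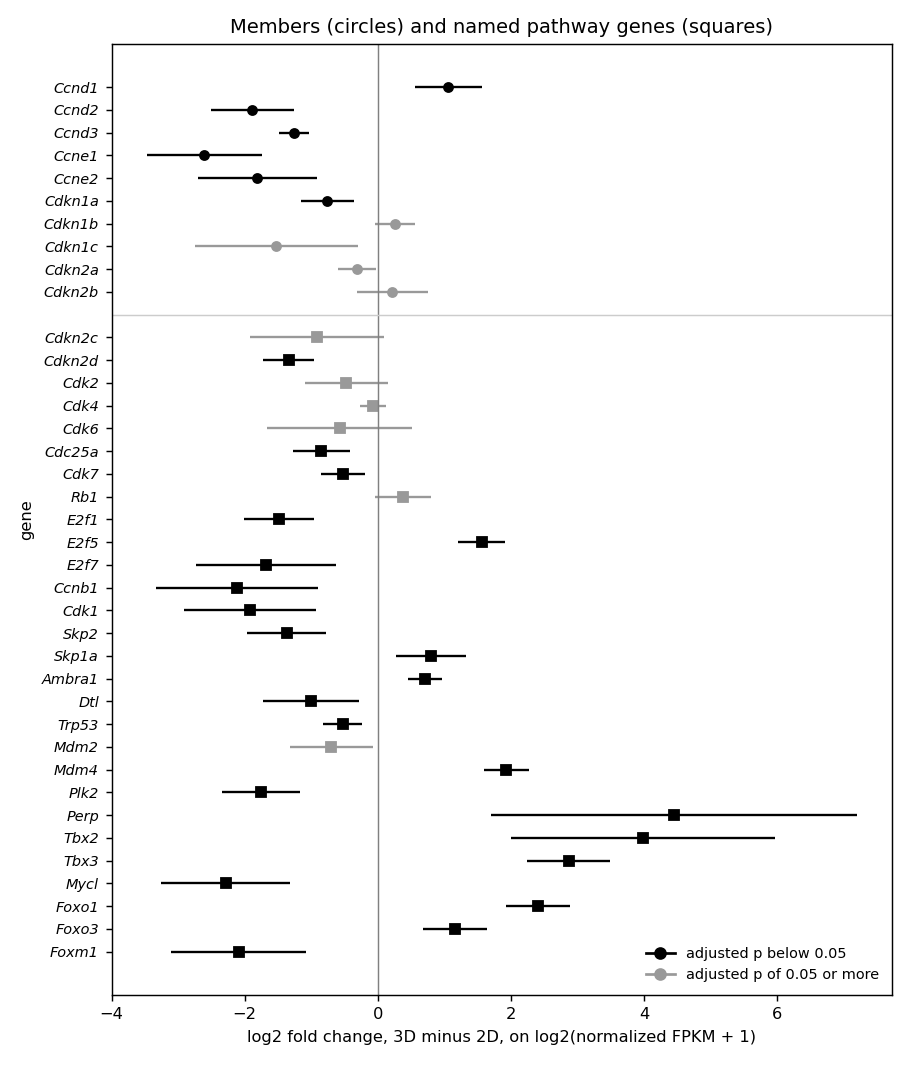
Log2 fold change of 3D over 2D on log2(normalized FPKM + 1) with limma's 95% confidence interval for the 10 members (circles) and 28 named pathway genes (squares), in black where the adjusted p was below 0.05. Among the members, Ccnd1 lies right of 0 at 1.06, the other 4 cyclins lie between -2.61 and -1.26, and Cdkn1a is the only inhibitor in black.

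Of 77 other genes of the pathway, 17 were higher and 23 lower in 3D, and their median log2 fold change was -0.26. Over all genes tested, 21.2% were higher and 20.3% lower, with a median of 0.0012. The counts for the pathway and for the lists that follow were not tested against these shares. The kinases that the members act on did not pass. Cdk4, the partner of D-type cyclins, averaged 143 ± 13.5 and 135 ± 8.37 normalized FPKM in 2D and 3D (SD, n = 4; adjusted p of 0.525 in limma), but had a log2 difference of -0.66 with an adjusted p of 2.8e-04 on the values as deposited. Cdk6, its relative, and Cdk2, the partner of E-type cyclins, had log2 differences of -0.57 and -0.47 with adjusted p-values of 0.367 and 0.203 from limma. In the list of 7 G1 kinases and activators, the phosphatase gene Cdc25a and the CDK-activating kinase gene Cdk7 fell, by 0.85 and 0.52 on the log2 scale. The call of Cdk7 was lost on the values as deposited and without the 2D library of mouse 3 or the 3D library of mouse 4, 5 or 7 (adjusted p of 0.0545, 0.0527, 0.0578 and 0.0527 in limma). Of the INK4 genes outside the members, Cdkn2d (p19INK4d) fell in normalized FPKM from 11.6 ± 2.21 to 3.94 ± 0.716 (SD, n = 4), and limma gave a log2 fold change of -1.34 with an adjusted p of 5.2e-04. Cdkn2c (p18) had a log2 difference of -0.92 (limma's adjusted p = 0.131), which was -1.36 with an adjusted p of 0.00586 without the 3D library of mouse 1.

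Of 13 pocket protein and E2F genes, 1 rose and 5 fell. E2f1, an activator of S phase genes, fell in normalized FPKM from 18.6 ± 2.52 to 6.25 ± 2.56 (SD, n = 4), and limma gave a log2 fold change of -1.49 with an adjusted p of 0.00157. E2f7, a repressor that is itself active in S phase, fell by 1.68 on the log2 scale (adjusted p of 0.0503 in limma without the 3D library of mouse 7), and E2f5, which acts with pocket proteins as a repressor, rose by 1.56. Rb1, the retinoblastoma gene, averaged 4.16 ± 0.560 and 5.76 ± 1.46 normalized FPKM in 2D and 3D (SD, n = 4; adjusted p of 0.141 in limma). It passed as higher on the values as deposited (0.62, adjusted p = 0.0329). Of the 6 cyclins and kinases of S, G2 and M phase, 5 fell, with log2 fold changes of -2.11 for the mitotic cyclin gene Ccnb1 and -1.92 for Cdk1. Within mouse 4, Ccnb1 and Cdk1 differed by -0.41 and -0.50 on the log2 scale, and within mouse 5 by -3.38 and -2.90. The differences of Ccnb2 and Ccnf were 0.15 and 0.23 within mouse 4 and -2.71 and -2.25 within mouse 5. The calls of Ccnb2 and Ccnf, cyclin genes of this list, were each lost without any one of 5 libraries (adjusted p of up to 0.112 and 0.0871 in limma), the 2D libraries of mice 2 and 5 and the 3D libraries of mice 5 and 7 for both, with mouse 3 in 2D for Ccnb2 and mouse 1 in 3D for Ccnf.

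The 12 genes of cyclin and Cip/Kip degradation were divided, with 3 higher and 6 lower in 3D. Skp2, whose product marks p27 for destruction, fell in normalized FPKM from 9.01 ± 3.52 to 2.69 ± 0.156 (SD, n = 4), and limma gave a log2 fold change of -1.37 with an adjusted p of 0.00390, while Cdkn1b did not pass. Dtl, which directs the destruction of p21 in S phase, fell by 1.00 on the log2 scale, but its adjusted p in limma was between 0.0579 and 0.0863 without any one of the 2D libraries of mice 2 and 5 and the 3D libraries of mice 1, 5 and 7. Cul4a, a ubiquitin ligase scaffold, lost its call without mouse 3 in 2D or mouse 7 in 3D (up to 0.0538). Ambra1, whose product is a receptor for the degradation of D-type cyclins, rose by 0.71, and Skp1a, a shared ubiquitin ligase subunit, rose by 0.80. The rise of Skp1a did not pass on the values as deposited (limma's adjusted p = 0.479), nor without the 2D library of mouse 2 (0.0688) or mouse 5 (0.066).

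Of 17 genes of the p53 list, to which Cdkn1a is close by function, 4 rose and 2 fell. Trp53 fell in normalized FPKM from 61.8 ± 8.61 to 42.5 ± 5.36 (SD, n = 4), and limma gave a log2 fold change of -0.53 with an adjusted p of 0.0121. Plk2, a p53 target, fell by 1.76 on the log2 scale, and Mdm4, an inhibitor of p53, rose by 1.93. Perp, a p53 target that is also a desmosome gene of epithelia, rose by 4.44, although mouse 4 in 2D had 42.2 normalized FPKM. Mdm2, the p53 ubiquitin ligase and a target of p53, had a log2 difference of -0.70 (limma's adjusted p = 0.0722), and it passed as lower on the values as deposited (-1.15, adjusted p = 0.00558) and without the 2D library of mouse 2 (0.0466) or mouse 5 (0.0407). The p53 targets Sesn2 and Trp53inp1 passed as higher with adjusted p-values of 0.0455 and 0.0214 from limma. The call of Sesn2 was lost without any library but that of mouse 1 in 3D (adjusted p of up to 0.109), and that of Trp53inp1 without mouse 2 or 5 in 2D or mouse 4 or 7 in 3D (up to 0.0547), and 11 genes of the list, Mdm2 among them, did not pass.

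Of 10 repressors of the Cdkn2a and Cdkn2b locus, 6 were higher in 3D, and the other 4 (Bmi1, Ezh2, Eed and Cbx8) did not pass. Tbx3, a T-box repressor of p19ARF, rose from 3.46 ± 1.42 to 30.1 ± 3.45 normalized FPKM (SD, n = 4), and limma gave a log2 fold change of 2.87 with an adjusted p of 1.3e-04. Tbx2, its relative, lay between 0.134 and 0.242 normalized FPKM in the 2D libraries and at 131, 10.9, 6.14 and 9.72 in 3D (mice 1, 4, 5 and 7). Suz12, Cbx7, Ring1 and Rnf2, which encode Polycomb proteins, rose as well. The call of Suz12 was lost without the 3D library of mouse 4 or 5 (adjusted p of up to 0.0534 in limma), and that of Rnf2, whose libraries overlapped, without any library but those of mouse 3 in 2D and mouse 1 in 3D (up to 0.0984). The summed level of the list lay between 90.9 and 111 normalized FPKM for 2D and between 154 and 282 for 3D, where the highest value is that of mouse 1 with its high Tbx2.

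Of 10 transcription factors upstream of G1, 3 rose and 2 fell. Foxo1 and Foxo3, whose products activate Cdkn1b transcription in quiescent cells, rose by 2.41 and 1.16 on the log2 scale. Mycl, a MYC family gene, and Foxm1, a driver of G2 and M phase genes, fell by 2.28 and 2.09. In the fit with a term for each mouse, 0 of the 77 genes passed limma's adjusted p and 17 were below 0.05 by the unadjusted p. With only mice 4 and 5, 7 passed as higher and 3 as lower.

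The genes whose pattern was most like that of a member were those with the highest Pearson correlation over the 8 libraries, among genes that averaged 1 FPKM or more. For Ccnd1 these were Klhl42, Arhgap5 and Mical3 (r between 0.965 and 0.980), for Ccnd2 St3gal5, Pon2 and Msl3 (0.986 to 0.991), and for Ccnd3 Jam2, Cxx1c and Ogn (0.994 to 0.997). For Ccne1 they were Kctd9, C330027C09Rik and Smim15 (0.995 to 0.997), and for Ccne2 Trip13, Suv39h1 and Recql4 (0.995 to 0.998). Cdkn1a was most like Dlgap4, Tmem154 and Tprgl (0.979 to 0.987), and Cdkn1b most like Anp32a, Zfp607 and Pik3r2 (0.938 to 0.982). The highest values were 0.982 for Cdkn1c (Crct1), 0.956 for Cdkn2a (Neu3) and 0.986 for Cdkn2b (Tmem241). All points of a correlation share the division into 2 cultures, so these values are a description.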

How the data were processed

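RNA-seq libraries of 8 ADSC cultures (4 of 2D, 4 of 3D) were grouped by their titles. The deposited FPKM values were made by the authors from paired-end reads of directional, rRNA-depleted libraries with FASTX_Trimmer, BBMap, TopHat and Cufflinks. The submitters' processing notes name mm10 as the build, and the annotation and the strand setting of the counting are not given in the sources used here. Read counts were not used here. Libraries of different mice measure the spread between animals and cultures together.

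Genes at 0 in every library (5484 of 24346) were left out. The study's methods name quantile normalization, which the deposited values do not show (upper quartiles from 10.7 to 11.4 FPKM), so it was applied here with limma 3.58.1 (R 4.3.3), followed by log2(FPKM + 1) and a linear model with intensity trend and no covariates. The model was tested on simulated data with independent, normally distributed log2 values. The simulation had no shared mice and no difference in scaling between the cultures, so it cannot decide how either affects the calls. Depth was estimated from steps between low FPKM values of 875 single-transcript genes of at least 3000 nt (GENCODE M21, GRCm38, which also gave the coordinates). Between 93 and 119 low values were used per library, and between 71.9% and 84.0% of them lay within 0.15 of a whole fragment. The depth was chosen for closeness to whole fragments, so this share does not check it. Estimated fragments use the longest transcript and cover counting error only. The mice pair the cultures only for mice 4 and 5, and the correlation of their 2D and 3D deviations was -0.053 and -0.11 over 12577 genes.

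The members and lists were chosen with earlier results of these data known. By rule, the named pathway genes are 10 fixed genes (Cdkn2c, Cdkn2d, Cdk2, Cdk4, Cdk6, Rb1, E2f1, Trp53, Mdm2 and Skp2) and a choice from each list. From each list these are up to 2 genes with the largest rise and 2 with the largest fall among those with limma's adjusted p below 0.05. Mki67, Epcam and Col1a1 stand for the marker lists. Other genes of the pathway and marker lists, such as Suz12, Sesn2, Cul4a, Ccnb2 and Krt8, are named in the text outside this rule. Alternatives were the values as deposited, scaling to the 75th percentile, no trend, a pseudocount of 0.1, removal of genes with a mean under 1 FPKM, a block or a random effect for the mouse, only mice 4 and 5, each library left out, and, chosen after seeing the data, genes under 300 nt left out.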

Additional observations from a re-analysis of the deposited data

Results flagged for a closer look

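In 8 of 82 groups of 4 libraries (41 named genes in 2 cultures), a single library stood farther from the others than Dixon's 95% limit allows. For independent, normally distributed values about 5% of groups pass this limit. The values here were FPKM on the linear scale, and some groups lay near 0. The number of groups flagged is thus a description and cannot be set against that rate. In 3D, Ccne1 was between 1.38 and 1.60 normalized FPKM except in mouse 4, which had 3.28. E2f1 in the same library was at 10.04 normalized FPKM against at most 5.38. In the 3D library of mouse 1, Cdkn2c was at 15.2 normalized FPKM against at most 5.01 in the others, Cdk7 at 7.81 against at most 6.63, Skp1a at 334 against at most 193, and Tbx2 at 131 against at most 10.9. In 2D, Perp was at most 4.66 normalized FPKM except in mouse 4, which had 42.2. The epithelial marker Epcam was at 0 in 2D except in mouse 2, which had 0.0504 normalized FPKM.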

How the results depend on the processing

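With the replicate block, limma's adjusted p passed for 0 cyclins in either direction, 0 inhibitors lower, 0 pathway genes and 0 of all genes, with 5216 of all genes below 0.05 by the unadjusted p. With 1 residual degree of freedom this fit says nothing about stability. With only mice 4 and 5, 2 cyclins passed as lower, 1 inhibitor passed as lower (Cdkn1c in place of Cdkn1a), 7 pathway genes as higher and 3 as lower, and 1788 of all genes as higher and 1432 as lower, against 4000 and 3823 with 8 libraries. On the values as deposited and with 75th percentile scaling, 0 cyclins were higher (Ccnd1 lost its call), 2 inhibitors were lower (Cdkn2a was added), and Cdkn2b turned to -0.15 and -0.096. With a pseudocount of 0.1, with low genes (mean under 1 FPKM) removed, or with genes under 300 nt left out, an alternative chosen after seeing the data, 2 inhibitors were lower (Cdkn1c was added). With single libraries left out, between 0 and 1 inhibitors were higher and between 1 and 2 lower (without the 2D library of mouse 3 or mouse 5), while 1 cyclin was higher and 4 lower each time. No intensity trend and the mouse as a random effect changed no call of a member. Over all alternatives but the block, limma's adjusted p ranged from 0.00167 to 0.140 for Ccnd1, 4.6e-04 to 0.0724 for Ccne1, 0.00237 to 0.116 for Ccne2, 1.5e-04 to 0.140 for Cdkn1a, 0.0457 to 0.874 for Cdkn1b, 6.9e-04 to 0.451 for Cdkn2a and 0.101 to 0.929 for Cdkn2b. Depth limits Cdkn1c, with at most 5.5 fragments per 3D library.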

Other observations

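The 3D library of mouse 1, the one whose description ends in 13, differed from the other 3D libraries in genes outside the G1 list, which were chosen after their values were seen. Krt5, a keratin of basal epithelia and mesothelium, was at 326 normalized FPKM in it and at most 0.435 in the other 3D libraries, and it held nearly all of the summed level of the mesothelial list there (327). Msln, Upk3b and Wt1 were at 0.506, 0 and 1.00 normalized FPKM in the same library. Among the members, this library had the highest 3D level of Ccnd1, Ccnd2, Cdkn1a and Cdkn1b, and leaving it out changed no call of a member. Of its FPKM as deposited, 53.1% lay in genes under 300 nt, against 10.1% to 22.4% in the other 3D libraries. In 2D this share was between 5.30% (mouse 2) and 31.3% (mouse 3). What part this share has in the differences between the libraries was not tested.

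The macrophage list had a summed level of between 2.07 and 21.3 normalized FPKM in 2D and between 6.25 and 42.3 in 3D, and the endothelial list between 1.07 and 6.79 in 2D and between 0.0480 and 0.202 in 3D. The adipocyte list, with Adipoq at 0 in every library, had a summed level of between 12.9 and 48.2 normalized FPKM in 2D and between 0.0799 and 0.546 in 3D. By limma's adjusted p, 0 of the 7 mesothelial and 0 of the 5 endothelial markers passed (0 and 2 by the unadjusted p), 1 of 5 macrophage markers (Cd68) was higher in 3D, and 2 of 4 adipocyte markers tested (Lpl and Pparg) were lower.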
